A study of Mus musculus with 4 samples.

Results

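Tubulins are the building blocks of microtubules. The set examined here held 10 mouse alpha and beta tubulin genes, Tubb3, Tubb2a, Tubb2b, Tubb4a, Tubb4b, Tubb5, Tubb6, Tuba1a, Tuba1b and Tuba4a. Members were the probe sets that the annotation of the array assigns to exactly 1 of these symbols. That gave 19 probe sets of 9 genes, out of 18193 genes with a probe set of their own. Tuba1b had none, because its probe set is annotated to a further symbol as well, so Tuba1b is not reported.

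RNA of whole mouse brains, taken at embryonic day 14.5, was hybridised to 4 Affymetrix arrays of 1 colour. The strain background was mixed 129SvJ/C57Bl/6J in both groups. The double-knockout group (2 arrays) carried Brn4::Cre with Sox4 flox/flox and Sox11 flox/flox, and the control group (2 arrays) carried both pairs of floxed alleles without the Cre. Sox4 and Sox11 are transcription factors of the SoxC group, and the comparison asks how transcript levels in the brain differ when they are deleted with this Cre. Brn4 is another name of Pou3f4, so recombination is limited to cells that use this driver, and no array held the Cre without the floxed alleles. The labels speak of biological replicates and do not give the number or sex of the embryos behind an array, so p-values cover the spread among these 4 arrays and no more. The series title names the spinal cord, while every sample label names whole brain.

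Values are MAS5 signals, which are intensities in arbitrary units. Median signals were 263.2 and 268.6 on the knockout arrays and 286.7 and 262.0 on the control arrays, and log2 signals of tested probe sets correlated with r of 0.987 within the knockouts and 0.984 within the controls. These r values are across probe sets, which are not independent replicates. Sox11 fell at each of its 6 probe sets and was still detected. Its brightest, 1436790_a_at, read 10306 and 9491 in knockouts, against 25451 and 26097 in controls. Of the 6 Sox4 probe sets that could be tested, 4 fell, 1 rose (1419157_at, 3.55-fold) and 1 did not pass. The last, 1433575_at, was the brightest and read 37277 and 38263 in knockouts, against 36048 and 34819 in controls. Which of them lie in the deleted part is not known here. Of 6 trunk Hox genes with a probe set, 5 lay below the signal filter, and the remaining one, Hoxc6, read 144.0 and 133.3 in knockouts and 148.0 and 286.9 in controls.

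An alpha and a beta tubulin join into a dimer, and dimers stack into the wall of the microtubule. Mammals hold several genes for each, and their products differ mostly in the acidic tail at the end of the protein, where enzymes add and remove chemical groups. Tubb3 is the tubulin used to mark neurons, and Tubb2b, Tuba1a, Tubb2a and Tubb4a are abundant in the nervous system. Tubb5, Tubb4b, Tubb6 and Tuba4a are found in many tissues and form the broadly expressed class here. In humans, mutations of TUBB3, TUBB2B, TUBA1A and TUBB cause malformations of the cerebral cortex.

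A probe set was tested where its mean log2 value lay above the 40th percentile of the array, and 13 of the 19 were. Together they covered all 9 genes. The 6 left out were dim, with signals of 1.7 to 180.2 over the arrays, and belonged to Tubb4b, Tubb6 and Tuba4a. Genes called rose or fell had an adjusted p under 0.05 in limma, with Benjamini-Hochberg adjustment over all 27022 tested probe sets. By this rule 4 tubulin probe sets fell, 3 rose and 6 did not pass. The share of all tested probe sets that changed was 23.2%, with 11.7% that rose and 11.6% that fell, while 53.8% of the tubulin probe sets changed. Tubulins went both ways, and the median log2 change was 0.09 over the tubulin probe sets and -0.01 over all tested probe sets. Knockout and control signals did not overlap at 12 of the 13, where 62.9% of all tested probe sets had separated groups.

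**Figure D1:**
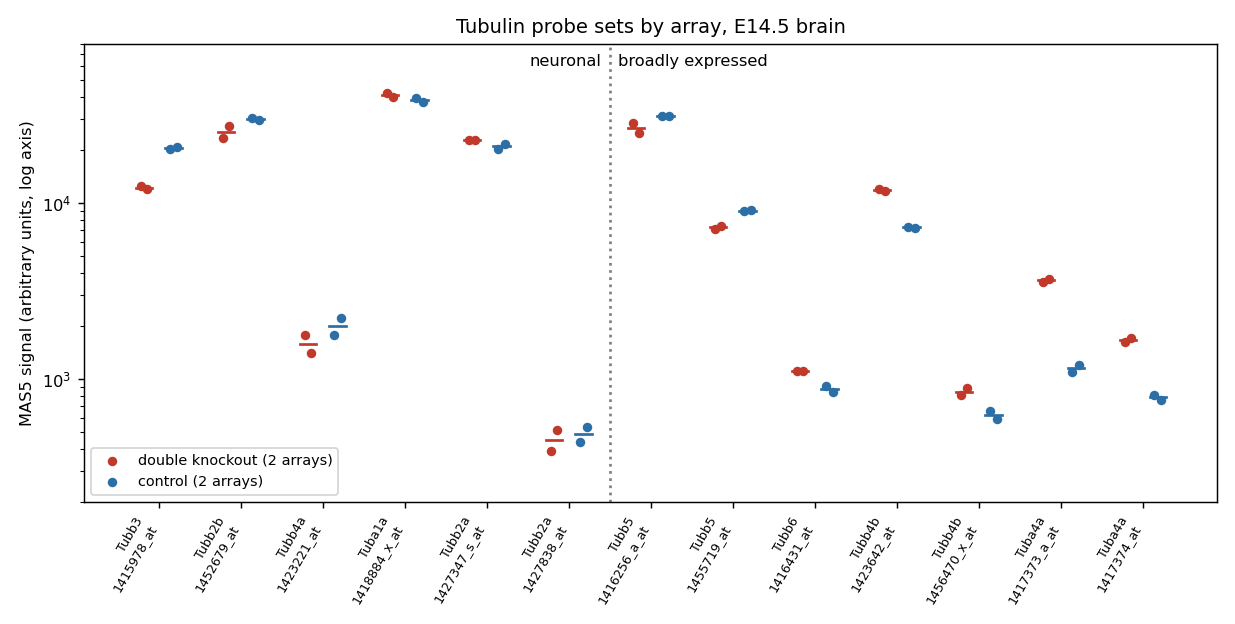
MAS5 signal on a log axis of the 13 tested tubulin probe sets, with a point for each array (double knockout in red at the left, control in blue at the right of each pair) and a line at the mean of 2 arrays. Tubb3 was lower in both knockout arrays, with 12405 and 11985 against 20215 and 20780, while both Tuba4a probe sets and the brighter Tubb4b probe set were higher.

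Tubb3, the neuronal beta tubulin, showed the largest fall among the 13 tested alpha and beta tubulin probe sets. Its only probe set, 1415978_at, read 12405 and 11985 in the knockout arrays, against 20215 and 20780 in the control arrays. Both knockouts lay well below both controls, and replicates of a group differed by far less than the groups did. The log2 change was -0.75 (95% interval -0.89 to -0.61, limma adjusted p = 6.59e-05), a fall of 1.68-fold. It kept its direction and its call in all 14 alternative analyses.

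Tubb2b, a beta tubulin abundant in young cortical neurons, fell less. Its probe set 1452679_at read 23389 and 27477 in knockouts, against 30286 and 29638 in controls. The 2 knockout arrays differed from each other by more than the nearer one differed from the controls. The log2 change was -0.24 ± 0.08 (SE, limma adjusted p = 0.0421). This call held in 8 of 14 alternatives and was lost without knockout 1 (-0.12, adjusted p = 0.151), without control 1 (-0.23, adjusted p = 0.137) and without control 2 (-0.26, adjusted p = 0.0775). It was also lost with median centring (-0.20, adjusted p = 0.202), without the signal filter (adjusted p = 0.157) and without the variance trend (adjusted p = 0.257).

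Tubb2a lies next to Tubb2b on chromosome 13, and the pair are close paralogs. The brighter Tubb2a probe set, 1427347_s_at, carries a suffix for probes that can detect related transcripts. It read 22664 and 22850 in knockouts, against 20316 and 21605 in controls, and its log2 change was 0.12 ± 0.06 (SE, limma adjusted p = 0.188). The dim probe set 1427838_at read 387.7 and 514.4 in knockouts and 439.3 and 536.6 in controls (log2 change -0.12 ± 0.19, limma adjusted p = 0.711). Neither passed, and their changes had opposite signs.

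Tuba1a, the alpha tubulin of migrating neurons, was among the brightest features of the array. Probe set 1418884_x_at read 41974 and 40063 in knockouts, against 39468 and 37432 in controls. The log2 change was 0.09 (95% interval -0.03 to 0.22, limma adjusted p = 0.254), and its sign turned with quantile normalization (-0.045, adjusted p = 0.504). Its suffix also marks probes shared with related transcripts, and Tuba1a stands between Tuba1b and Tuba1c on chromosome 15, so signal of these neighbours may be included.

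Tubb4a, a beta tubulin of mature neurons and of oligodendrocytes, read 1767 and 1403 in knockouts, against 1780 and 2228 in controls. The higher knockout and the lower control nearly met, and the log2 change of -0.34 ± 0.15 (SE) did not pass (limma adjusted p = 0.127). With single arrays left out, the change was -0.50 without knockout 1 (adjusted p = 0.1), -0.17 without knockout 2 (adjusted p = 0.525), -0.50 without control 1 (adjusted p = 0.0349) and -0.17 without control 2 (adjusted p = 0.5). Leaving out control 1 was the 1 alternative of the 14 in which it passed. Among 6 tested markers of the oligodendrocyte lineage, Mbp fell, Pdgfra rose and 4 did not pass, and their summed signal was 5348 and 4652 in knockouts and 4665 and 5593 in controls. None of these markers was listed at 0, and their part in the Tubb4a value was not tested.

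Among the broadly expressed tubulins, Tuba4a rose most. The gene of this alpha tubulin does not encode the final tyrosine that Tuba1a carries on its tail. Probe set 1417373_a_at read 3567 and 3689 in knockouts, against 1100 and 1199 in controls. Both knockout signals lay far above both control signals, with a log2 change of 1.65 (95% interval 1.41 to 1.88, limma adjusted p = 1.52e-05) and a fold change of 3.13. The separate probe set 1417374_at read 1629 and 1705 in knockouts and 812.4 and 760.2 in controls, and rose by 2.10-fold (log2 change 1.07 ± 0.12, SE, limma adjusted p = 0.000294). Both calls held in all 14 alternatives, while 1417375_at, at 27.2 and 35.1 in knockouts and 58.6 and 36.1 in controls, was too dim to test.

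Tuba4a is abundant in platelets. Of 4 tested markers of red cells and platelets, Pf4 rose and 3 did not pass, and Ppbp and Gp9 lay below the signal filter. The platelet markers Pf4 (log2 change 0.36) and Itga2b (0.27, limma adjusted p = 0.295) were higher in both knockouts than in both controls. The red cell markers Alas2 and Hbb-bh1 had log2 changes of -0.05 each. The summed signal of the 4 was 3422 and 3757 in knockouts and 3192 and 3103 in controls. The part of platelets in the Tuba4a value was not tested. Tubb1, the beta tubulin of platelets, read 129.3 and 172.6 in knockouts and 171.0 and 204.9 in controls (log2 change -0.30 ± 0.28, SE, limma adjusted p = 0.492). Pf4 lost its call in each analysis that left out 1 array, and Tubb1 overlapped between the groups.

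Tubb4b, a beta tubulin of most tissues that also builds cilia, rose. Probe set 1423642_at read 12022 and 11711 in knockouts, against 7343 and 7170 in controls. The groups were separated by many times the spread within them, at a log2 change of 0.71 (95% interval 0.55 to 0.87, limma adjusted p = 0.000141) or 1.63-fold, and the call held in all 14 alternatives. Probe set 1456470_x_at was dimmer, with 808.2 and 886.4 in knockouts and 653.9 and 593.1 in controls. Its log2 change of 0.43 ± 0.14 (SE) had the same sign and did not pass (limma adjusted p = 0.0536). It passed with quantile normalization (adjusted p = 0.0439), with median centring (adjusted p = 0.0303) and with a stricter signal filter (adjusted p = 0.0432). The remaining 4 Tubb4b probe sets were below the filter.

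Tubb5, a beta tubulin of progenitors and neurons alike, went the other way from Tubb4b. The brighter probe set, 1416256_a_at, read 28340 and 24935 in knockouts, against 31256 and 31181 in controls (log2 change -0.23 ± 0.07, SE, limma adjusted p = 0.0324). The second, 1455719_at, read 7088 and 7426 in knockouts, against 8979 and 9067 in controls (log2 change -0.31 ± 0.07, SE, limma adjusted p = 0.0129). Both probe sets fell, and at each the knockouts lay below both controls.

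These Tubb5 calls were less firm than those of Tubb3, Tubb4b and Tuba4a. The first was lost in 6 of 14 alternatives, among them without knockout 2 (-0.14, adjusted p = 0.106), without control 1 (-0.23, adjusted p = 0.115) and without control 2 (-0.23, adjusted p = 0.0988). The second was lost in 5, among them without knockout 1 (-0.28, adjusted p = 0.0556), without control 1 (-0.32, adjusted p = 0.0583) and without control 2 (-0.31, adjusted p = 0.0645). Median centring ended both calls (-0.19 and -0.27, adjusted p = 0.225 and 0.107), as did a variance prior with no trend (adjusted p = 0.246 and 0.117). The sign did not turn in any of the 14.

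Tubb6, a beta tubulin with low levels in brain, read 1108 and 1113 in knockouts, against 913.5 and 848.6 in controls at 1416431_at. Both knockouts were higher, and the log2 change of 0.33 ± 0.13 (SE) did not pass (limma adjusted p = 0.0889). A second Tubb6 probe set was below the filter.

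**Figure D2:**
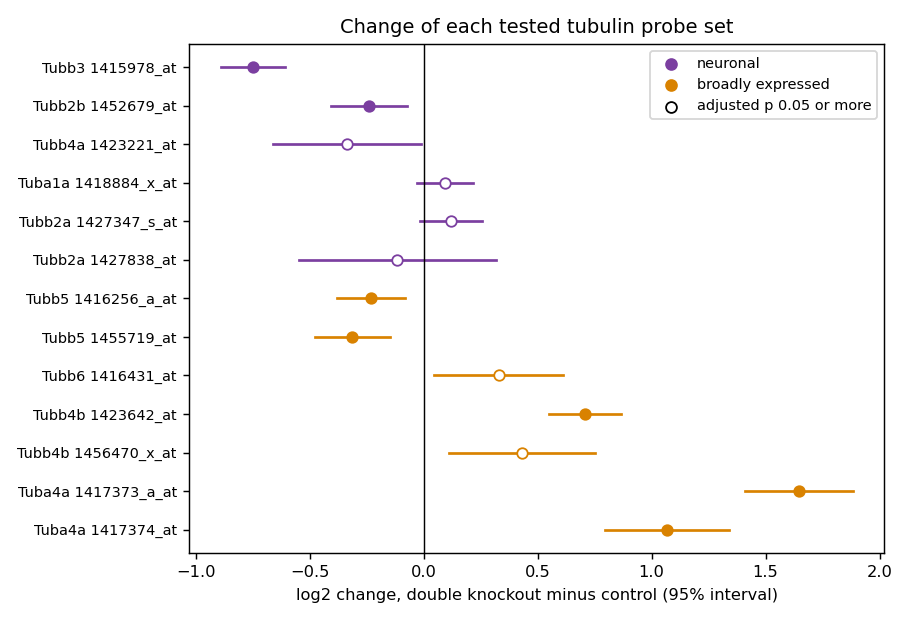
Log2 change, double knockout minus control, of each tested tubulin probe set, with its 95% interval from limma (purple for neuronal, orange for broadly expressed tubulins; open points have an adjusted p of 0.05 or more). Tubb3 lies furthest to the left at -0.75 and Tuba4a furthest to the right at 1.65, and Tubb5 lies on the same side as Tubb3.

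Read at the brightest probe set of each gene, 2 of 5 neuronal tubulins fell (Tubb3 and Tubb2b), 0 rose and 3 did not pass. Of 4 broadly expressed tubulins, 2 rose (Tuba4a and Tubb4b), 1 fell (Tubb5) and 1 did not pass. Among all 12489 genes read this way, 16.3% rose and 11.0% fell. The median log2 change was -0.24 in the neuronal class and 0.52 in the broadly expressed class, beside 0.06 for all genes. Changes ran from -0.75 to 0.12 in the neuronal class and from -0.23 to 1.65 in the broadly expressed class, so the classes overlapped.

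Within each array, the mean log2 signal of the broadly expressed class was subtracted from that of the neuronal class. The result has no meaning as a level, because probe sets differ in brightness, but its shift between groups does not depend on a single factor that scales an array. It was 1.18 and 1.18 in knockouts, against 1.98 and 2.05 in controls. Both knockouts were lower, by 0.84 on the log2 scale, which corresponds to a ratio lower by 1.78-fold. Each gene counts equally in this mean, whatever its signal. The shift was smaller without Tubb2a and Tuba4a (-0.58) and among beta tubulins alone (-0.57), and kept its sign. Tuba4a (1.65), Tubb3 (-0.75) and Tubb4b (0.71) had the largest changes of the genes averaged, and the shift without them was not computed. Summed signals, in which bright genes weigh most, moved less. The neuronal sum was 102199 and 103778 in knockouts, against 112064 and 111683 in controls (0.92 of the controls). The broadly expressed sum was 45036 and 41448 in knockouts, against 40612 and 40398 in controls (1.07 of the controls).

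Tubulin genes were also set against each other in 4 pairs, chosen after their values were seen. Tubb3 minus Tubb4b was 0.04 and 0.03 in knockouts, against 1.46 and 1.53 in controls, a shift of -1.46. Tubb3 minus Tubb5 was -1.19 and -1.06 in knockouts, against -0.63 and -0.58 in controls, a shift of -0.52. The knockouts were lower in both differences, and the shift against Tubb4b was the larger. The paralogs Tubb2b minus Tubb2a gave 0.05 and 0.27 in knockouts and 0.58 and 0.46 in controls, a shift of -0.36, while Tuba4a minus Tuba1a gave -3.55 and -3.44 in knockouts and -5.15 and -4.95 in controls, a shift of 1.55. In every pair the groups did not overlap, which is no separate support because the values were known when the pairs were chosen. The exact two-sided permutation test gave p = 0.333 (adjusted over the 4 pairs, 0.333), the smallest that 2 arrays against 2 allow.

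**Figure D3:**
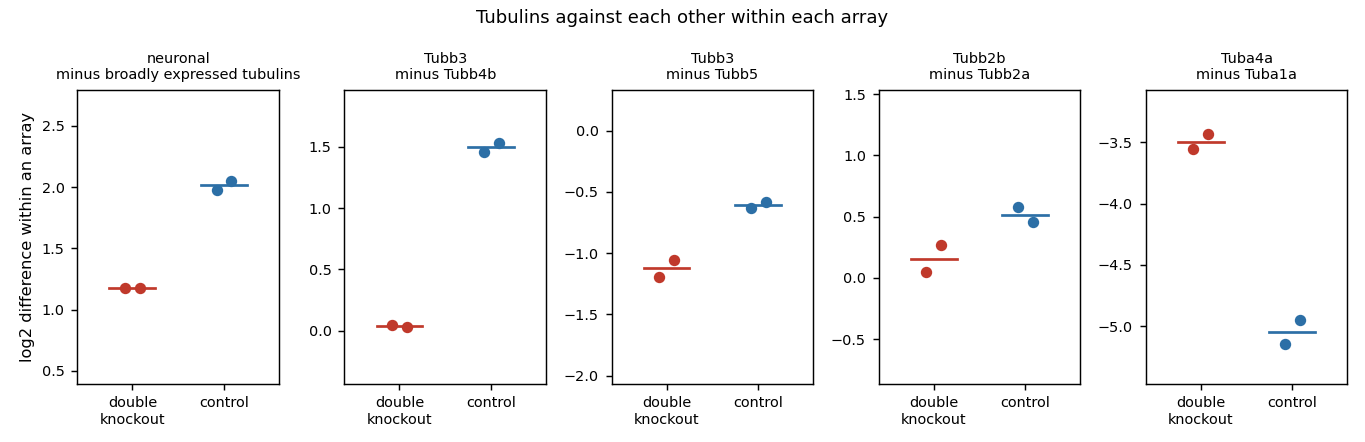
Log2 difference within each array for the class means and for 4 gene pairs, with a point for each array and a line at the group mean (double knockout left, control right); each panel spans the same number of log2 units around its own centre. The neuronal class minus the broadly expressed class sits at 1.18 in both knockouts and at 1.98 and 2.05 in the controls.

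Several tubulins are so abundant that their probe sets read near the top of the scale, where the brightest feature of an array reached 45868 to 50615. A mean signal above 20000 was found at 383 tested probe sets, including 4 of tubulins (Tuba1a, Tubb2a 1427347_s_at, Tubb2b and Tubb5 1416256_a_at). Changes were smaller among these bright probe sets, with a median size of 0.14 on the log2 scale against 0.24 over all tested probe sets. Of the 383, 31.3% changed, against 23.2% of all tested probe sets. Rises outnumbered falls among them, with 101 that rose and 19 that fell, while 11.7% of all tested probe sets rose and 11.6% fell. The central 90% of log2 changes among the 383 ran from -0.20 to 0.31. Tubb2b (-0.24) and Tubb5 (-0.23) lay just below this range, and Tuba1a and Tubb2a inside it. Whether signals of this size still follow transcript level in proportion was not tested.

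Markers of cell types moved with the genotype as well, each read at the brightest tested probe set of its gene. Beside each list here and in the next paragraph stands the share over all genes. Of these, 27.3% changed, with 16.3% that rose and 11.0% that fell. In whole brain RNA, fewer cells of a type and less RNA per cell cannot be told apart. Of 12 tested markers of young neurons, 8 fell, 1 rose and 3 did not pass, and their summed signal was 129311 and 126036 in knockouts, against 160029 and 167460 in controls. Of 9 tested markers of cycling cells, 7 rose and 2 did not pass, with sums of 47244 and 46952 in knockouts and 35747 and 32884 in controls. All 9 microglia and macrophage markers rose, with sums of 22464 and 20520 in knockouts and 6128 and 7020 in controls. Without knockout 1, 4 of the cycling cell markers rose.

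Vessel and connective tissue markers moved too. Of 6 endothelial markers, 4 rose and 2 did not pass, with sums of 8185 and 7829 in knockouts and 5670 and 6129 in controls. Of 7 markers of mesenchyme and pericytes, 4 rose and 3 did not pass, with sums of 36891 and 38772 in knockouts and 28259 and 29053 in controls. Neural progenitor markers were mixed, with 4 of 10 that rose, 1 that fell and 5 that did not pass, and sums of 80866 and 82691 in knockouts and 78752 and 74172 in controls. Of 4 tested markers of brain regions, 2 fell (En2 and Otx2) and 2 did not pass, with sums of 5320 and 5237 in knockouts and 7317 and 7013 in controls. Several of these counts rested on single arrays. The endothelial markers that rose numbered 0 without knockout 1, 1 without knockout 2 and 0 without control 1, the mesenchymal ones 2 without knockout 2, and the progenitor ones 1 without knockout 1 and 2 without control 2. No marker of these 7 lists was listed at 0, and the part of the cell types in the tubulin values was not tested.

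The genes whose pattern over the 4 arrays was closest to that of Tubb3 were sought by Euclidean distance of log2 values centred on their mean. The nearest 5 of the 12489 were Lgr5, Nt5dc3, Mast4, Elavl3 and Zc3hav1l, at distances of 0.03 to 0.05 log2 units. Elavl3, an RNA-binding protein of neurons, read 4779 and 4549 in knockouts, against 7606 and 7728 in controls. It is 1 of the young neuron markers above, and the others are not on that list. All 5 fell by log2 changes of -0.76 to -0.72 (limma adjusted p of 0.000246 to 0.0321), and the call of Lgr5 was lost with each single array left out (adjusted p = 0.0696 to 0.117). With 4 arrays, this likeness mostly reflects the size of the change, so the fall of all 5 follows from how they were picked.

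Sox proteins bind DNA through a high-mobility-group domain that prefers a short core. The letters ACAAAG and ACAATG were searched on both strands of the 250 bases before the annotated start of each gene in RefSeq (GRCm38.p6), with the letters chosen after the sequences were in view. Windows of 8 of the 10 tubulins are reported. Those of Tubb2b, which also fell, and of Tubb6 are not. The 4 below are shown because Tubb3 and Tubb5 fell while Tubb4b and Tuba4a rose, and they are read in the direction of transcription with matches in capitals.

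Tubb3, chr8:123411303-123411552, plus strand: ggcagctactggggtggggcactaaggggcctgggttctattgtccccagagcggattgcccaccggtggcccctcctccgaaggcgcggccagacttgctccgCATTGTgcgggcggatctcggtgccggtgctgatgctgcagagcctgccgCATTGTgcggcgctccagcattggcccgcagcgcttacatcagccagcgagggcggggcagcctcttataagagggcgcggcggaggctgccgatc
Tubb5, chr17:35838302-35838551, minus strand: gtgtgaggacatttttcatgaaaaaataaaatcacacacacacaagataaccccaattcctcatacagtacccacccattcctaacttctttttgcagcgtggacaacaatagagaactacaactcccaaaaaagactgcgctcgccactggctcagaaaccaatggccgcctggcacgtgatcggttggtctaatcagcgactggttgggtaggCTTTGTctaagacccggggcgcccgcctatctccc
Tubb4b, chr2:25224703-25224952, minus strand: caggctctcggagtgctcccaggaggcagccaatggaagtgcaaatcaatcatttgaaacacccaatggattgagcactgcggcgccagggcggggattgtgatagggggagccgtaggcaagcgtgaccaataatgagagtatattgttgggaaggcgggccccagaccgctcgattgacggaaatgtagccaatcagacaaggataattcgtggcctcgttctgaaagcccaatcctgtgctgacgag
Tuba4a, chr1:75219295-75219544, minus strand: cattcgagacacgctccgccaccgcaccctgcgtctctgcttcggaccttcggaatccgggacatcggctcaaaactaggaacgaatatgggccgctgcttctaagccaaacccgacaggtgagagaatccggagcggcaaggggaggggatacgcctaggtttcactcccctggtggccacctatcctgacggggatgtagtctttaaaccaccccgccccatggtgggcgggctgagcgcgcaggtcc

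The Tubb3 window held ACAATG in 2 places, both on the opposite strand and so printed as CATTGT, at -146 to -141 and at -96 to -91 from the start. The Tubb5 window held ACAAAG once on the opposite strand, printed as CTTTGT, at -35 to -30. The Tubb4b and Tuba4a windows held neither, nor did those of Tubb2a, Tubb4a, Tuba1a and Tuba1b, and no match overlapped another. Of 21263 windows of protein-coding genes, 9.35% held ACAATG at least once and 0.635% at least 2 times, while 14.9% held ACAAAG and 22.8% held either. Only these 2 strings were searched, so a window without a match may still hold other forms of the core. A match in these letters is a description of the sequence and not a binding site. Because letters and windows were chosen with sequences and changes known, a link between matches and direction of change was not tested.

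The genes that act on tubulin were read next, each at its brightest tested probe set. Among all genes read this way, 27.3% changed, with 16.3% that rose and 11.0% that fell. Enzymes that modify the tubulin tail or body came first. Of 27 listed, 20 were tested, of which 3 fell, 1 rose and 16 did not pass, with a median log2 change of -0.16. Vash2, which removes the final tyrosine of alpha tubulin, read 1108 and 1448 in knockouts, against 3310 and 3673 in controls (log2 change -1.45 ± 0.14, SE, limma adjusted p = 0.000111). Svbp, the small partner that Vash2 needs, read 5179 and 5680 in knockouts, against 7836 and 8357 in controls (log2 change -0.58 ± 0.08, SE, limma adjusted p = 0.00109). Transcripts of both subunits of this enzyme were thus lower in the knockout brains, and both calls held in all 14 alternatives. Protein and enzyme activity were not measured, and Vash1, also listed, had no probe set of its own.

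Atat1, the acetyltransferase of alpha tubulin inside the microtubule, fell at all 4 of its tested probe sets. The brightest, 1452979_at, read 1682 and 1512 in knockouts, against 3920 and 4317 in controls (log2 change -1.36 ± 0.11, SE, limma adjusted p = 4.81e-05). The other 3 fell by log2 changes of -1.28, -1.11 and -0.90. Tpgs1, a subunit of the complex that adds glutamates to the tail, rose (1815 and 1692 in knockouts, 1267 and 1249 in controls, log2 change 0.47, limma adjusted p = 0.0142), a call that was lost without knockout 1 (0.42, adjusted p = 0.0907). The deacetylases Hdac6 and Sirt2 and the tyrosine ligase Ttl did not pass, with log2 changes of -0.15, 0.23 and 0.14.

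Of 23 tested genes that fold new tubulin, 2 rose, 1 fell and 20 did not pass, with a median log2 change of 0.05, close to that of all genes. Cct3, a subunit of the cytosolic chaperonin, and Pfdn5, a subunit of prefoldin, rose by log2 changes of 0.24 each (limma adjusted p = 0.0244 and 0.0256), and Tbce, a cofactor that folds alpha tubulin, fell by -0.44 (limma adjusted p = 0.0205). Each of the 3 calls was lost when some single array was left out, among them control 1 (adjusted p of 0.201, 0.16 and 0.136). Of the other 5 tested Cct3 probe sets 3 rose, while the second Pfdn5 probe set did not pass (0.11, adjusted p = 0.285). Ttc5, which recognises new tubulin chains and triggers decay of tubulin mRNA, had a log2 change of -0.04.

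Severing enzymes, which cut microtubules, went both ways. Fign, fidgetin, read 1234 and 1506 in knockouts, against 2872 and 2606 in controls (log2 change -0.997 ± 0.125, SE, limma adjusted p = 0.000486) and fell at its other 2 tested probe sets too. Spast, spastin, fell by -0.55 (limma adjusted p = 0.00419; adjusted p = 0.0572 without knockout 1), and its second probe set did not pass (-0.36, adjusted p = 0.0719). Katnal2, related to katanin, was dim and rose, with 413.8 and 328.0 in knockouts and 160.9 and 191.5 in controls (log2 change 1.00, limma adjusted p = 0.0119; adjusted p = 0.124 without knockout 1), and its second probe set did not pass (0.64, adjusted p = 0.102). Fignl1 rose by 0.53 (limma adjusted p = 0.0135; adjusted p = 0.105 without knockout 2). Katna1 and Katnal1 did not pass, which left 2 of 6 that fell and 2 that rose.

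Among genes that start new microtubules, 3 of 21 rose, 1 fell and 17 did not pass, with a median log2 change of 0.00. Akap9, a scaffold at the centrosome and Golgi apparatus, read 4307 and 4202 in knockouts, against 7417 and 7603 in controls (log2 change -0.82 ± 0.08, SE, limma adjusted p = 0.000125), and fell at 4 of 5 tested probe sets. Haus4, a subunit of augmin, read 1173 and 987.1 in knockouts, against 623.1 and 543.9 in controls (log2 change 0.87 ± 0.15, SE, limma adjusted p = 0.00276). Tpx2, a spindle protein, and Nedd1, which brings gamma tubulin to centrosomes, rose by 0.43 and 0.42 (limma adjusted p = 0.035 and 0.0352). Both were lost without knockout 1 (adjusted p = 0.0892 and 0.0674), knockout 2 (adjusted p = 0.179 and 0.181) or control 2 (adjusted p = 0.178 and 0.0605), and Nedd1 also without control 1 (adjusted p = 0.106). Of the other 3 tested Tpx2 probe sets 1 rose, and the second Nedd1 probe set did not pass (0.35, adjusted p = 0.256).

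Among the other tubulins, 1 of 5 tested fell and 4 did not pass. Tubg2, a gamma tubulin of brain, read 280.0 and 227.2 in knockouts, against 472.3 and 468.6 in controls (log2 change -0.86 ± 0.20, SE, limma adjusted p = 0.0114; adjusted p = 0.0781 without knockout 2). Its paralog Tubg1 read 1718 and 1527 in knockouts and 1626 and 1559 in controls, with overlapping groups and a log2 change of 0.02.

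**Figure D4:**
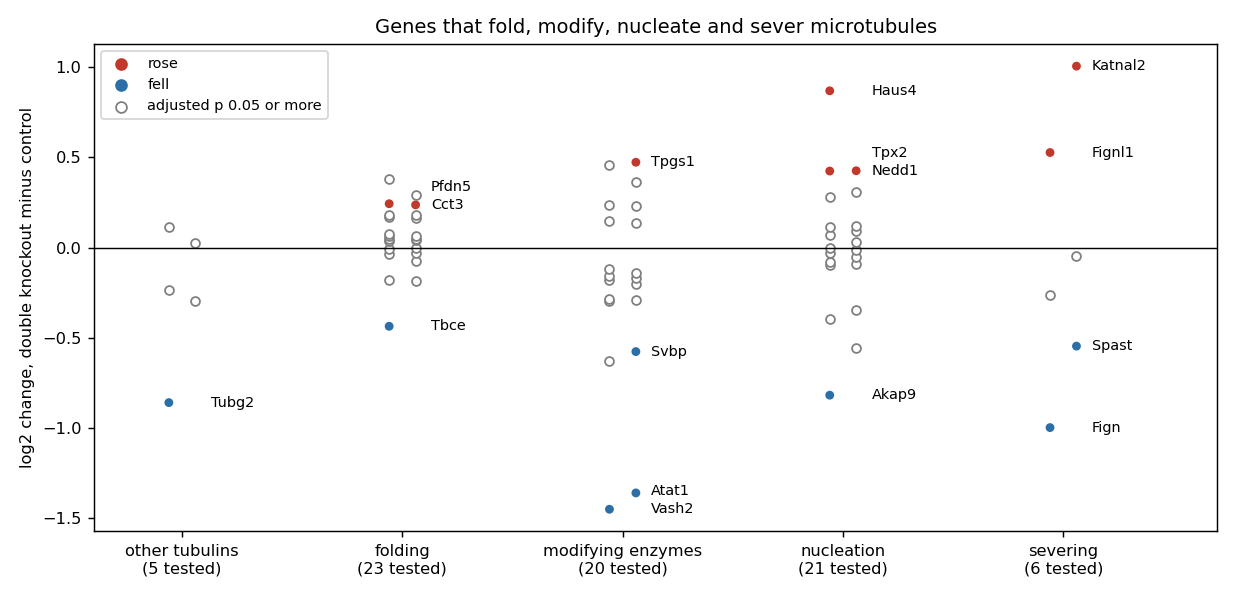
Log2 change, double knockout minus control, of each tested gene of 5 lists at its brightest probe set (red rose, blue fell, open points have an adjusted p of 0.05 or more; labels name the genes that changed). Vash2 at -1.45 and Atat1 at -1.36 lie lowest, and Katnal2 at 1.00 lies highest, while the folding genes run from Tbce at -0.44 to Tbcc at 0.38 around a median of 0.05.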

How the data were processed

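The authors deposited linear intensities per probe set. They come from MAS5 (version 5.0, per the submitters' processing notes) and from biotin-labelled RNA amplified from 100 ng per array, per the labels' protocols. The trimmed mean (2% at either end) was 995.4 to 995.6 on each array, so 1 scaling factor per array had been applied, and a shift of most transcripts in a group would not show. No genome build of the probe annotation is given by the sources used here. Of 45101 probe sets, 64 array controls were left out, and 34945 had 1 symbol, 932 several and 9160 none. The symbols of all 9 tubulins with a probe set matched RefSeq by gene ID. Probe sets with several symbols were tested but not named, 7 of them with an alpha or beta tubulin symbol.

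Signals were transformed as log2(signal + 16), a scale that understates changes of dim genes, and kept above the 40th percentile of the mean (a log2 value of 7.41, signal 154.6), which left 27022. Knockout minus control was fitted in limma 3.58.1 under R 4.3.3 (lmFit, eBayes with a variance trend; 2 residual and 8.33 prior degrees of freedom) with Benjamini-Hochberg adjustment. Steps were tested on simulated data. Groups and replicate numbers came from the sample titles. The rule for named genes took all tubulin probe sets, Sox4 and Sox11, up to 4 genes of each tubulin list by size of change among those that passed the test, and the 5 genes most like Tubb3. Others, such as Tubb1, Tubg1, Ttc5, Tbcc, Ttl, Hdac6, Sirt2, Mbp, Pdgfra, Pf4, En2 and Otx2, were chosen after their values were seen. The members and lists were chosen with earlier results of these data known. The 14 alternatives were 2 normalizations, pseudocounts of 1 and 64, no filter and a filter at the 60th percentile, 2 variance models, a threshold of 0.1, each of the 4 arrays left out, and a replicate block. With an array left out, its single partner is assumed to vary as the other group does. Precision is limited throughout by the number of arrays.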

Additional observations from a re-analysis of the deposited data

How the results depend on the processing

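Tubb3, Tubb4b at 1423642_at and both tested Tuba4a probe sets kept their direction and call in all 14 alternatives. Over those alternatives their log2 changes ran from -0.79 to -0.71, 0.68 to 0.75, 1.58 to 1.71 and 1.02 to 1.12. The number of tubulin probe sets that fell was 4 in the reported analysis, 1 with median centring, 2 without the signal filter, 1 without the variance trend and 1 to 3 with an array left out. The number that rose was 3 in the reported analysis and 5 at a threshold of 0.1. It was 4 with quantile normalization, with median centring and with the filter at the 60th percentile. Of all tested probe sets, 6277 changed, 3114 without the variance trend and 3132 to 5422 with an array left out. The neuronal minus broadly expressed shift was -0.84 on the log2 scale. It was -0.87 to -0.80 with an array left out, -0.74 with the mean of the probe sets of a gene, -0.97 without probe sets of shared-transcript suffixes, -0.58 without Tubb2a and Tuba4a, and -0.57 among beta tubulins alone. Signs turned for Tuba1a with quantile normalization (-0.045) and for Tubb2a 1427838_at without knockout 1 (0.081) and without control 2 (0.02), where the range with an array left out was -0.31 to 0.081, and none of these values passed the threshold, and the cause was not tested. Over all alternatives, the tubulin-modifying genes that fell numbered 3 to 5 and those that rose 0 to 3, the folding genes that rose 0 to 4 and that fell 0 to 1, the nucleation genes that rose 1 to 5 and that fell 1 to 4, the severing genes 1 to 2 in each direction, the young neuron markers that fell 5 to 8 and the cycling cell markers that rose 4 to 9. Without the variance trend, 1 marker each of endothelium, mesenchyme and progenitors rose and 1 brain region marker fell, and 2 endothelial markers rose without the signal filter. The labels do not say whether replicate numbers pair the arrays. Deviations of same-numbered arrays correlated at 0.003 across probe sets, and with 2 arrays per group this single value cannot exclude a pairing. With the replicate block 6844 probe sets changed, and 4 tubulin probe sets fell and 3 rose.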
